A study of Mus musculus with 6 samples.

Results

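The genes described here encode the proteins of the mitochondrial ribosome, found as the probe sets whose platform annotation gave a single symbol beginning with Mrpl (large subunit) or Mrps (small subunit) and a digit. The rule found 76 of the 18193 genes with such an annotation, 47 of them Mrpl genes measured by 104 probe sets and 29 of them Mrps genes measured by 52 probe sets, which makes 156 of the 34945 probe sets with 1 symbol. Another 4 probe sets carried an Mrpl or Mrps symbol together with a second symbol and were left out. All 76 genes had a probe set with a mean of at least 6 on the log2 scale of the arrays, and 123 of the 156 probe sets reached that mean.

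The mitochondrial ribosome translates the few messenger RNAs of the mitochondrial genome, all of which code for membrane subunits of the respiratory chain and ATP synthase. Its ribosomal RNAs are transcribed inside the mitochondrion, while every one of its proteins is encoded in the nucleus, made in the cytosol and imported. Many of these proteins descend from proteins of the bacterial ribosome, and others were gained in the mitochondrial lineage and have no bacterial counterpart.

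The arrays came from EBRTcH3 mouse embryonic stem (ES) cells in which the ROSA26 locus held the open reading frame of human WBSCR1, tagged with 3xFLAG and driven by a promoter that tetracycline (Tc) keeps silent. WBSCR1 is the human counterpart of Eif4h, a factor that stimulates the helicase Eif4a during the start of cytosolic translation. There were 3 induced arrays, from cells grown for 24 h without Tc, and 3 control arrays, from cells kept in Tc. Each clone (A1, A3 and A4) gave 1 induced and 1 control array, both with the transgene in place, so that the effect of the transgene and that of removing Tc cannot be told apart. Each clone is a line grown from a single integration, and the transgene has no probe set known to read it here, so the arrays did not check the induction.

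All 10 markers of ES cells, Pou5f1, Nanog and Sox2 among them, had a mean of at least 6 log2, with a median over the 10 genes of 12.20, whereas 1 of 8 fibroblast or feeder markers, 0 of 5 endoderm markers, 0 of 3 measured mesoderm markers and 2 of 4 neural markers reached that mean. The arrays differed in ways that the groups do not explain. The mean of the 3 control probe sets for 18S ribosomal RNA was 7.03, 7.27 and 5.99 log2 on the induced arrays of A1, A3 and A4 and 5.66, 6.61 and 5.99 log2 on the control arrays of the same clones. In addition, 63 probe sets that moved by at least 1 log2 up in A1 and down in A4 averaged 7.89, 6.42 and 6.35 log2 on the induced arrays and 6.35, 6.57 and 7.78 log2 on the control arrays, and no mitochondrial ribosomal probe set was among them.

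Promoter windows were available in the RefSeq table (GRCm38.p6) for 67 of the 76 genes, each running from 250 bases before the annotated start to 50 bases after it. The 3 motifs searched on both strands belong to nuclear factors known to act on genes of mitochondrial proteins: the ETS motif CCGGAAGT bound by Gabpa, the core GCANGCGC of the factor Nrf1, and the core AAGATGGC of the factor Yy1. No match of one motif overlapped a match of another. Over the first window of each gene, the ETS motif was held by 11 of the 67 genes (16.4%), against 4.0% of the windows of all 27025 genes. Nrf1's core was held by 20 of the 67 genes (29.9%), against 9.87% of all genes, and Yy1's core by 12 of the 67 genes (17.9%), against 2.88% of all genes. At least 1 of the 3 was present in 24 of 41 Mrpl windows (58.5%) and 12 of 26 Mrps windows (46.2%), against 15.3% over all genes. The 27025 genes include ones not measured on the arrays, whereas all members are. Among measured genes with a window the motifs were more common than among the 27025. There 888 genes held the ETS motif and 13564 did not. For Nrf1's core these counts were 2217 and 12235, and for Yy1's core 534 and 13918. The matches are of letters and not measured binding sites.

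The median position of the matches differed by motif, with no test and no background positions. The 11 ETS matches had a median position 19 bases before the start, and the 31 Nrf1 matches, of which some overlap each other on opposite strands, a median 36 bases before it. The 12 Yy1 matches had a median position 16 bases after the start, and 9 of the 12 lay within 50 bases of it. So did 17 of the 31 Nrf1 matches and 7 of the 11 ETS matches.

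**Figure D1:**
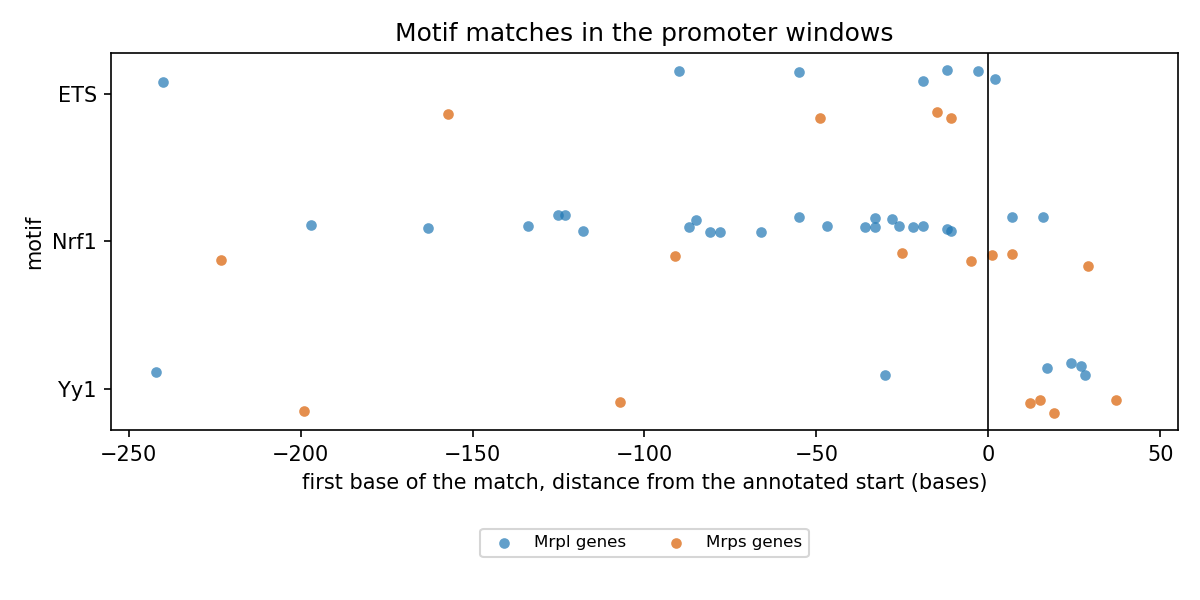
Position of the motif matches in the promoter windows of 67 mitochondrial ribosomal protein genes, as the distance in bases of the first base of a match from the annotated start (vertical line), with Mrpl and Mrps genes in separate colours and a small vertical scatter for visibility. Within 50 bases of the start lie 9 of the 12 Yy1, 17 of the 31 Nrf1 and 7 of the 11 ETS matches. The farthest match of each lies 242, 223 and 240 bases before it.

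Windows of 6 genes that recur in the results below are shown 5′ to 3′ on the strand of the gene, in lower case with the motif matches in capitals. The first 3 belong to Mrps18a, Mrps18b and Mrps18c, the mammalian paralogs of 1 bacterial small-subunit protein, and each of them holds a different motif: Mrps18a has Yy1's core 12 bases after the start, Mrps18b has Nrf1's core 223 bases before and 29 bases after it, and Mrps18c has the ETS motif 157 bases before it. Mrps22 and Mrps24 follow because they are among the genes that differed between clones, with an ETS match 11 bases before the start of Mrps22 and a Yy1 match 37 bases after that of Mrps24. The last is Mrpl12, one of the steadiest genes, with Nrf1's core 81 bases before the start.
Mrps18a (chr17:46110754-46111053, plus strand): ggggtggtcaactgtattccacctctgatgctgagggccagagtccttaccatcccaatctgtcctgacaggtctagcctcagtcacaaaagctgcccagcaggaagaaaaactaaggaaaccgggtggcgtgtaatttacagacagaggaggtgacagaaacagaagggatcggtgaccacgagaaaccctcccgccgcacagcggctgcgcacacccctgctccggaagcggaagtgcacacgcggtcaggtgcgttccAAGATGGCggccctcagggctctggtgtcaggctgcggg
Mrps18b (chr17:35916391-35916690, minus strand): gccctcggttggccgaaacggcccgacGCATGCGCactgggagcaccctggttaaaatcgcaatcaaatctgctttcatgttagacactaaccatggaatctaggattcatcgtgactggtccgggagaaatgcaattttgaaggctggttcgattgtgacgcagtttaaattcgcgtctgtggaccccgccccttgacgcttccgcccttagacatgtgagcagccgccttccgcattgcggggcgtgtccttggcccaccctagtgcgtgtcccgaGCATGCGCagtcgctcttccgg
Mrps18c (chr5:100798509-100798808, plus strand): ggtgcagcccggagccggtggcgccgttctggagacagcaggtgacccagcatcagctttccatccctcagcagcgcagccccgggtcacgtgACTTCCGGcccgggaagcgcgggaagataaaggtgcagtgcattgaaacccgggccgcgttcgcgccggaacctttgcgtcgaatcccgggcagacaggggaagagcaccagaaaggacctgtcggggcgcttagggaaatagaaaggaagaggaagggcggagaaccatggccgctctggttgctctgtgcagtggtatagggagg
Mrps22 (chr9:98601630-98601929, minus strand): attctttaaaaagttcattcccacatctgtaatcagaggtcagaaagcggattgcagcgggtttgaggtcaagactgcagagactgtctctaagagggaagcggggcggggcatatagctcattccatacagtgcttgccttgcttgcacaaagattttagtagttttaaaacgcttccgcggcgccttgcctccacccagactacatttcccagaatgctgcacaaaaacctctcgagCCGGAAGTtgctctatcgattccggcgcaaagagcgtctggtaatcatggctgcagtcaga
Mrps24 (chr11:5707652-5707951, minus strand): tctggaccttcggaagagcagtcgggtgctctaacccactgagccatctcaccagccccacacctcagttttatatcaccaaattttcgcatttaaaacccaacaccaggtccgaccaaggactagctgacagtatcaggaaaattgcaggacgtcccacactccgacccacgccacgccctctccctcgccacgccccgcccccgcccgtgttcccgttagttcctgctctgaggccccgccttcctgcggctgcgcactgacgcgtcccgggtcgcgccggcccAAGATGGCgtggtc
Mrpl12 (chr11:120484387-120484686, plus strand): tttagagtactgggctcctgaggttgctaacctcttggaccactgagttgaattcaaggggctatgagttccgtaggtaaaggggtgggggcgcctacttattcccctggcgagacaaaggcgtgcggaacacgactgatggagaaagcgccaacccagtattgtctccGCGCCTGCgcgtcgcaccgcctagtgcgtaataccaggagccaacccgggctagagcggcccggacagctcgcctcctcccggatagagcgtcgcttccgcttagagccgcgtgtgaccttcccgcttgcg

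One pair of members lay head to head. Mrpl46, on the minus strand of chromosome 7, and Mrps11, on the plus strand, had annotated starts 42 bases apart, and their windows shared 141 bases. More widely, 20 of the 67 genes (29.9%) had a gene on the opposite strand starting within the 300 bases upstream, against 9.47% of all 27025 genes in the promoter table. The latter include genes not measured on the arrays. On the arrays Mrpl46 read 9.99, 9.92 and 9.87 log2 in the induced cells of A1, A3 and A4 and 9.99, 9.82 and 9.92 log2 in the control cells. Mrps11, a small-subunit protein with a bacterial counterpart, read 9.40, 9.17 and 9.14 log2 in the induced cells and 9.25, 9.07 and 9.03 log2 in the control cells. Mrps11 was thus higher in the induced cells of each clone by about the same step, while Mrpl46 was nearly level in A1, higher in A3 and lower in A4.

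The first comparison asked whether the mitochondrial ribosomal protein genes changed when WBSCR1 was induced. None of the 156 probe sets passed an adjusted p of 0.05 (limma, Benjamini-Hochberg over 45037 probe sets), and neither did any other probe set, so the share called over the whole array was 0%. At an unadjusted p under 0.05 there were 3 of the 156 probe sets, against 676 of 45037. With clone as a block the test gave 0 calls and 3 members at an unadjusted p under 0.05, against 1539 of the 45037 probe sets. The methods' t-test gave 0 calls and 3 members at that level, against 1096 of the 45037. The smallest adjusted p of any probe set in limma's fit was 1.00.

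Small shifts in one direction were nonetheless common among the members. Over 1 probe set for each gene, that with the highest mean, 64 of the 76 genes (84.2%) were higher in the induced arrays, against 51.3% of all 18193 genes and 58.8% of the 9738 genes with a mean of at least 6 log2. The median change was 0.043 log2, against 0.0028 log2 over all genes and 0.016 log2 over the genes with a mean of at least 6 log2. For Mrps genes the median was 0.059 log2 with 24 of 29 higher, and for Mrpl genes it was 0.038 log2 with 40 of 47 higher. A log2 difference of 1 stands for a 2-fold difference. The median of 0.043 log2 was about as large as the SD of the medians of the 3 clones, which was 0.039 log2.

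The clones did not contribute alike. For Mrpl genes the median change was 0.0027 log2 in A1, 0.058 log2 in A3 and 0.070 log2 in A4, and for Mrps genes it was 0.056, 0.053 and 0.112 log2. Over all 18193 genes the medians in the same clones were -0.022, 0.019 and 0.0045 log2, and over the 9738 genes with a mean of at least 6 log2, as all members have, they were 0.0085, 0.0074 and 0.034 log2. In A1 the Mrpl median was thus below, and the Mrps median above, that of genes with a like minimum level. On induction 43 of the 76 members were higher in A1 and 62 in A4. For A3 no such count is given, and the median change over the members there was 0.056 log2. In all 3 clones 21 of the 76 genes were higher (13 Mrpl and 8 Mrps), and no gene was lower in all 3, while over the 18193 genes 1967 were higher and 1887 lower in all 3. The 9738 genes with a mean of at least 6 log2 leaned upward too, with 1233 higher and 697 lower in all 3.

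**Figure D2:**
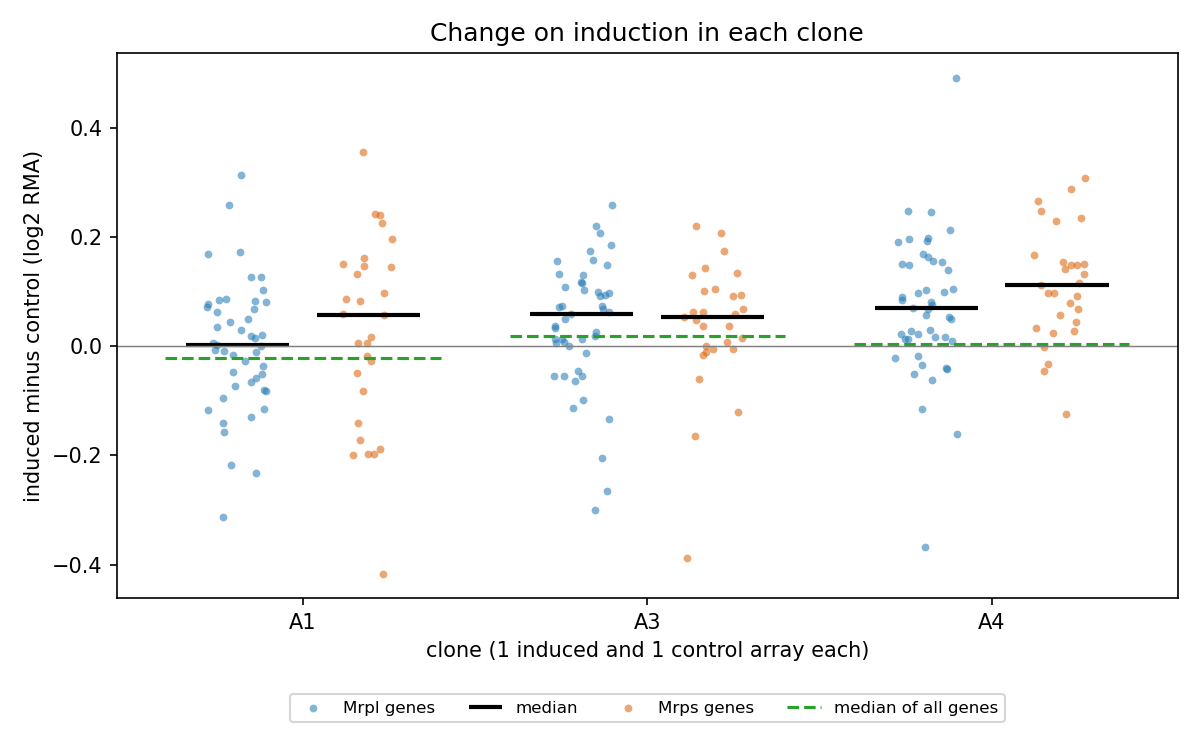
Change of each mitochondrial ribosomal protein gene on induction, as induced minus control in log2 RMA units, in clones A1, A3 and A4 (1 point for each gene, black bars for the medians of Mrpl and Mrps genes, green dashed lines for the median of all 18193 genes). The medians of the members lie above that of all genes in each clone, but in A1 the Mrpl median of 0.0027 log2 is below the 0.0085 log2 of the genes with a mean of at least 6 log2, which are not drawn.

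The control array of A4 stood lowest for these genes. As deviations of each gene from its own mean over the 6 arrays, the medians over the 76 genes were 0.066, 0.023 and 0.0027 log2 on the induced arrays of A1, A3 and A4 and 0.033, -0.034 and -0.082 log2 on the control arrays. On the control array of A4, 36 of the 76 genes had their lowest value and 1 gene its highest, and on the induced array of A1 30 genes had their highest value. Of the 9738 genes with a mean of at least 6 log2, 1798 were lowest and 749 highest on the control array of A4. On the induced array of A1 2484 of them were highest, the most of any array. The 63 probe sets named above were high, as the rule that chose them requires within each clone, on these same 2 arrays. Their deviations from the group means also correlated more with each other (0.37 over all probe sets) than those of the induced and control arrays of A1 (0.31) or of A4 (0.29), and the induced array of A4 correlated by 0.35 with the control array of A1. Whether the clone labels of these arrays hold was not tested, and the values for A1 and A4 rest on them. Without both of them, a setting chosen after seeing the data that leaves A3 and A4 against A1 and A3, 41 of the 76 genes were higher, and the median change was -0.0041 log2 for Mrpl genes and 0.011 log2 for Mrps genes. The part of the array differences, 18S ribosomal RNA included, in the shift was not tested.

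**Figure D3:**
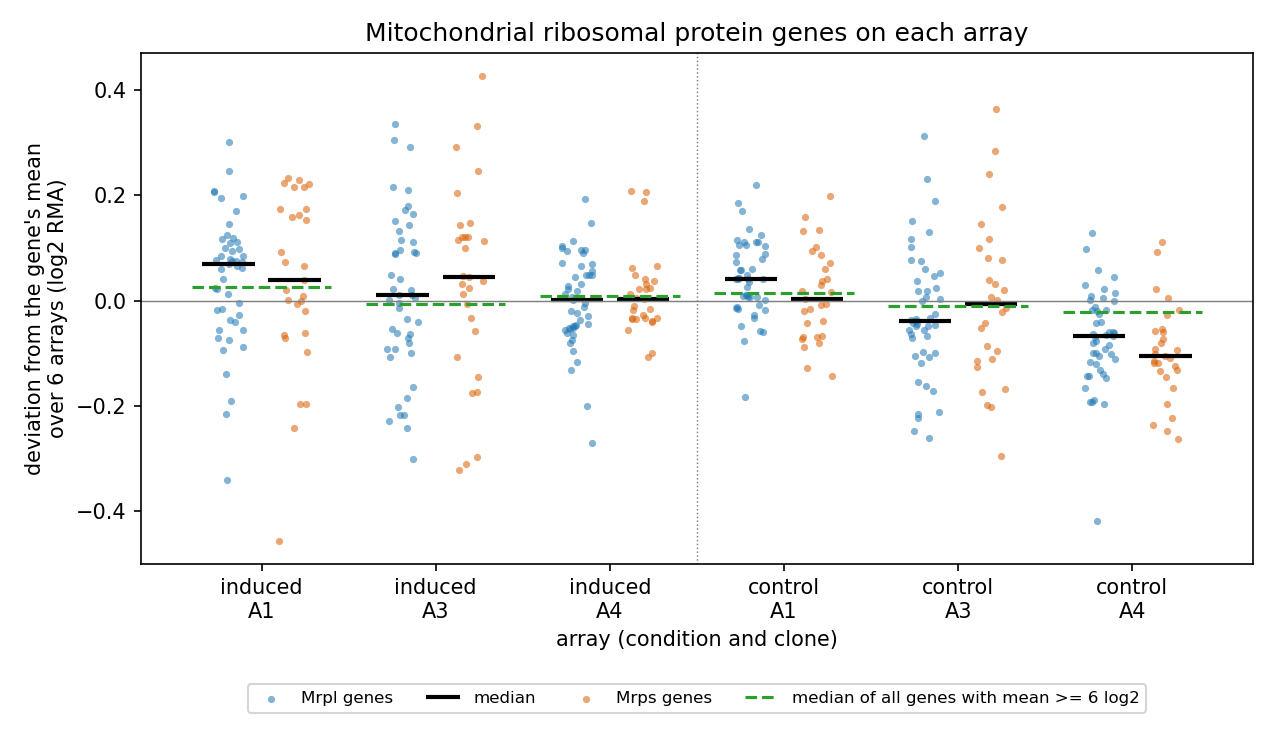
Deviation of each mitochondrial ribosomal protein gene from its own mean over the 6 arrays, in log2 RMA units, with induced arrays on the left and control arrays on the right (1 point for each gene, black bars for the medians of Mrpl and Mrps genes, green dashed lines for the median of the 9738 genes with a mean of at least 6 log2). The control array of A4 has the lowest medians and the induced array of A1 lies above 0 for both subunits.

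Among the small-subunit genes, Mrps6, a counterpart of a bacterial small-subunit protein, had the largest change. It read 9.27, 9.22 and 9.09 log2 in the induced cells of A1, A3 and A4, against 9.03, 9.09 and 8.94 log2 in the control cells. Each clone was higher when induced, but the induced value of A4 lay just under the control value of A3, so the groups overlapped. The change was 0.17 log2 with a standard error of 0.10 (95% interval -0.05 to 0.40 log2, adjusted p = 1.00 by limma).

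Mrps18c, 1 of the 3 paralogs whose windows are shown above, read 10.59, 10.55 and 10.40 log2 in the induced cells and 10.37, 10.42 and 10.31 log2 in the control cells. Its groups overlapped too, since induced A4 was below control A3, and the change was 0.15 log2 with a standard error of 0.10. The other paralogs differed less between the groups. Mrps18a read 9.62, 9.562 and 9.57 log2 in the induced cells, all narrowly above the 9.54, 9.555 and 9.44 log2 of the control cells (change 0.07 log2, standard error 0.09). For Mrps18b the change was 0.04 log2 with a standard error of 0.10. In mammals Mrps18a sits in the large subunit despite its name, and its paralogs in the small one.

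Mrps11 and Mrps10, both with bacterial counterparts, completed the small-subunit genes with the smallest p among those higher in every clone, at 0.12 log2 (standard error 0.11) and 0.08 log2 (standard error 0.09). On the large-subunit side these were Mrpl1, a protein of the mobile L1 stalk, at 0.12 log2 (standard error 0.12), Mrpl43 at 0.11 log2 and Mrpl42 at 0.10 log2, which both lack a bacterial counterpart, and Mrpl3, whose bacterial counterpart reaches towards the catalytic centre, at 0.09 log2. None of these 8 changes passed the test, and the adjusted p was 1.00 for each. Mrpl3 was the tightest of them, with 10.34, 10.30 and 10.26 log2 in the induced cells and 10.24, 10.20 and 10.19 log2 in the control cells. Its groups did not overlap, yet the change of 0.09 log2 was about as large as its standard error of 0.09 in the moderated fit.

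Mrpl1 rested on a single array. It read 8.53, 8.16 and 8.18 log2 in the induced cells and 8.22, 8.14 and 8.16 log2 in the control cells, so that only A1 moved by more than 0.03 log2. Without the induced array of A1 the change was -0.0031 log2.

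In 5 of the 156 probe sets all 3 induced arrays lay above all 3 control arrays, against 2.1% of the 45037 probe sets, and in 1 all 3 lay below, against 3.42%. The 5 were a probe set each of Mrpl3, Mrpl35, Mrpl41, Mrps10 and Mrps18a, and the 1 belonged to Mrps9. For Mrpl35, Mrpl41, Mrps10 and Mrps9 it was not the brightest probe set of the gene. The dim probe set of Mrpl35 (1419362_at) had the largest change of any member, with 6.20, 6.14 and 5.96 log2 in the induced cells and 5.90, 5.90 and 5.45 log2 in the control cells, a difference of 0.35 log2 with a standard error of 0.15. The brightest probe set of the same gene changed by 0.06 log2. Probe sets of 1 gene disagreed in direction by over 0.3 log2 on induction in 3 of the 24 genes with 3 or more probe sets, Mrpl35, Mrpl47 and Mrps9, each time through a probe set with a mean under 6 log2.

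Families that share the organelle or the function were counted in the same way, with no test of their difference from the members. Of 81 nuclear genes for subunits of the respiratory chain and ATP synthase, 57 were higher on induction (70.4%), with a median of 0.030 log2, and of 49 cytosolic ribosomal protein genes, 32 were higher (65.3%), with a median of 0.0078 log2. Genes that act with the mitochondrial ribosome were taken from lists of its assembly and of mitochondrial translation. Of 25 measured genes of its assembly, such as the GTPases and methyltransferases that act on its ribosomal RNAs, 21 were higher with a median of 0.06 log2, and of 13 translation factors 10 were higher with a median of 0.07 log2. Among 19 mitochondrial tRNA ligases and related genes 9 were higher and 10 lower, with a median of -0.02 log2. No gene of these lists passed the test on induction.

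The second comparison asked how steady the genes were. The median SD over the 6 arrays was 0.108 log2 for the 76 genes, 0.106 log2 for Mrpl genes and 0.121 log2 for Mrps genes, against 0.146 log2 for all 18193 genes, 0.148 log2 for the genes with a mean of at least 6 log2 and 0.125 log2 for the 3512 genes with a mean of at least 9 log2. Values under 0.2 log2 were found for 69 of the 76 members (90.8%) and for 77.4% of the genes with a mean of at least 9 log2. Cytosolic ribosomal protein genes were steadier, with a median SD of 0.053 log2, and the respiratory chain and ATP synthase genes were close to the members, with 0.114 log2. These families were not matched to the members in level. The median level was 13.69 log2 for the cytosolic family, 11.33 log2 for the respiratory family and 10.17 log2 for the members. These SDs describe the arrays, and no test of the difference was made.

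**Figure D4:**
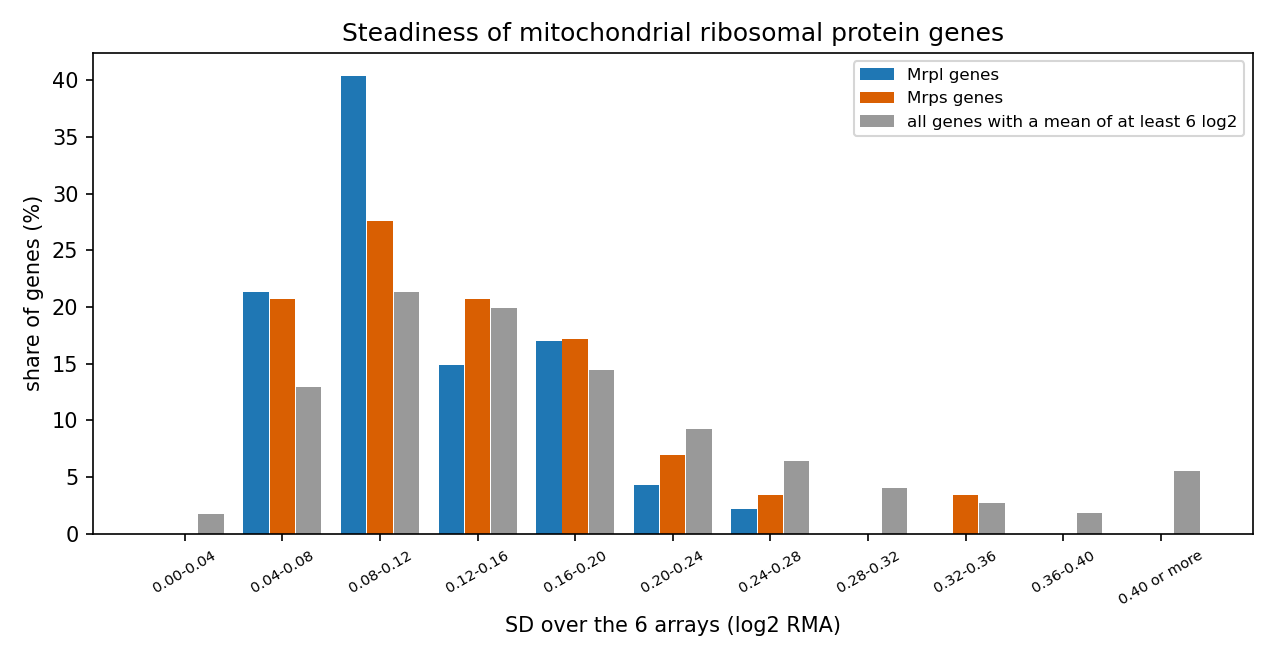
Share of genes (%) by SD over the 6 arrays, in steps of 0.04 log2 RMA, for 47 Mrpl genes, 29 Mrps genes and the 9738 genes with a mean of at least 6 log2. No member exceeds 0.36 log2, whereas 5.57% of the genes with a mean of at least 6 log2 lie at 0.40 log2 or more.

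The steadiest large-subunit genes were Mrpl21, Mrpl15, Mrpl24 and Mrpl12, with SDs of 0.052 to 0.054 log2. Mrpl12, which forms the stalk that recruits translation factors and whose window with Nrf1's core is shown above, read 11.34, 11.28 and 11.27 log2 in the induced cells and 11.34, 11.22 and 11.22 log2 in the control cells. The steadiest small-subunit genes were Mrps26, Mrps18a, Mrps17 and Mrps12, with SDs of 0.058 to 0.066 log2. Mrps12, the counterpart of the bacterial protein at the decoding centre, read 10.19, 10.31 and 10.23 log2 in the induced cells and 10.24, 10.17 and 10.12 log2 in the control cells.

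At the other end stood Mrps24, Mrps36, Mrps22 and Mrps15, with SDs of 0.338, 0.244, 0.236 and 0.229 log2, and Mrpl54, Mrpl16, Mrpl23 and Mrpl41, with 0.264, 0.213, 0.203 and 0.193 log2. Mrps36 has since been assigned to the 2-oxoglutarate dehydrogenase complex and not to the ribosome, and annotated pseudogenes exist for Mrps36 and Mrpl23, whose transcripts the probes may also bind. Mrpl54 read 9.01, 9.38 and 9.27 log2 in the induced cells and 9.24, 9.51 and 8.78 log2 in the control cells. Its lowest value came from the control array of A4, and A3 was the highest clone in both conditions.

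The third comparison was between the clones, with condition kept as a term. Each clone entered with 2 arrays, 1 of each condition, so that the p-values measure the spread between these arrays. The F test over the clones called 2 of the 156 probe sets, against 5.54% of the 45037 probe sets. They were a probe set of Mrps25 (1418716_at) and one of Mrpl1 (1460508_at). Both stood apart in A3. The contrast of A3 with the mean of A1 and A4 called 4 members higher in A3, against 3.89% of all probe sets, and 3 lower, against 5.68%. Between A1 and A4 no member was called, against 0.0178% of all probe sets. The median difference of A3 over the 76 genes was 0.0090 log2. It was 0.038 log2 over all genes but -0.014 log2 over the genes with a mean of at least 6 log2, as all members have. The sign of the members' median changed under several settings.

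Mrps25, a small-subunit protein without a bacterial counterpart, had the largest decrease, at its probe set 1418716_at. The A3 arrays read 7.06 log2 induced and 7.05 log2 control, against 7.81 and 7.62 log2 in A1 and 7.63 and 7.64 log2 in A4. Both A3 arrays were thus below all others. The difference was -0.62 log2 with a standard error of 0.10 (adjusted p = 0.00968 by limma), but this was not the brightest of the 3 probe sets of the gene. The brightest differed by -0.08 log2 (adjusted p = 0.721) and the dimmest by -0.24 log2 (adjusted p = 0.222), and neither passed the test.

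The called probe set of Mrpl1 was dim, at 4.23 log2 induced and 4.27 log2 control in A3, against 4.90 and 4.93 log2 in A1 and 4.69 and 4.67 log2 in A4. It differed by -0.55 log2 (standard error 0.10, adjusted p = 0.0119). The other probe sets of Mrpl1 were lower in A3 too, by -0.37 log2 (adjusted p = 0.0527) and, for the brightest, by -0.13 log2 (adjusted p = 0.534), and neither passed the test.

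Mrps22, also without a bacterial counterpart, has 1 probe set, and it was bright. It read 9.99 log2 in both A3 arrays, against 10.50 log2 induced and 10.49 log2 control in A1 and 10.35 and 10.40 log2 in A4. The 2 conditions of each clone lay within 0.05 log2 of each other, far closer than the clones did. The difference of -0.44 log2 (standard error 0.10) had an adjusted p of 0.0273.

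Higher in A3 were Mrps24, Mrpl15, Mrps5 and Mrpl16, which all have bacterial counterparts. Mrps24, whose window holds the Yy1 core shown above, read 11.53 log2 induced and 11.47 log2 control in A3, against 10.65 and 11.07 log2 in A1 and 11.005 and 10.91 log2 in A4, a difference of 0.59 log2 (standard error 0.13, adjusted p = 0.0295). Mrpl16, whose bacterial counterpart helps to position transfer RNA, read 10.22 and 10.15 log2 in A3, against 9.78 and 9.86 log2 in A1 and 9.72 and 9.78 log2 in A4, a difference of 0.40 log2 (standard error 0.10, adjusted p = 0.0439). In both genes every A3 array exceeded every array of the other clones, and the spread between the arrays of A1 was wider for Mrps24 than for Mrpl16.

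For Mrpl15 and Mrps5 the call came from a probe set that was not the brightest of the gene. The probe set 1451623_at of Mrpl15 was higher in A3 by 0.58 log2 (adjusted p = 0.0305), but the gene has 8 probe sets, and their differences ran from -0.50 to 0.58 log2. The 4 brightest of them differed by 0.0060 to 0.12 log2. For Mrps5 the called probe set was higher by 0.48 log2 (adjusted p = 0.039) and the brightest by 0.19 log2 (adjusted p = 0.30). Across the 24 genes with 3 or more probe sets, 9 had probe sets that disagreed in direction by over 0.3 log2 between A3 and the other clones, Mrpl15 and Mrps5 among them.

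**Figure D5:**
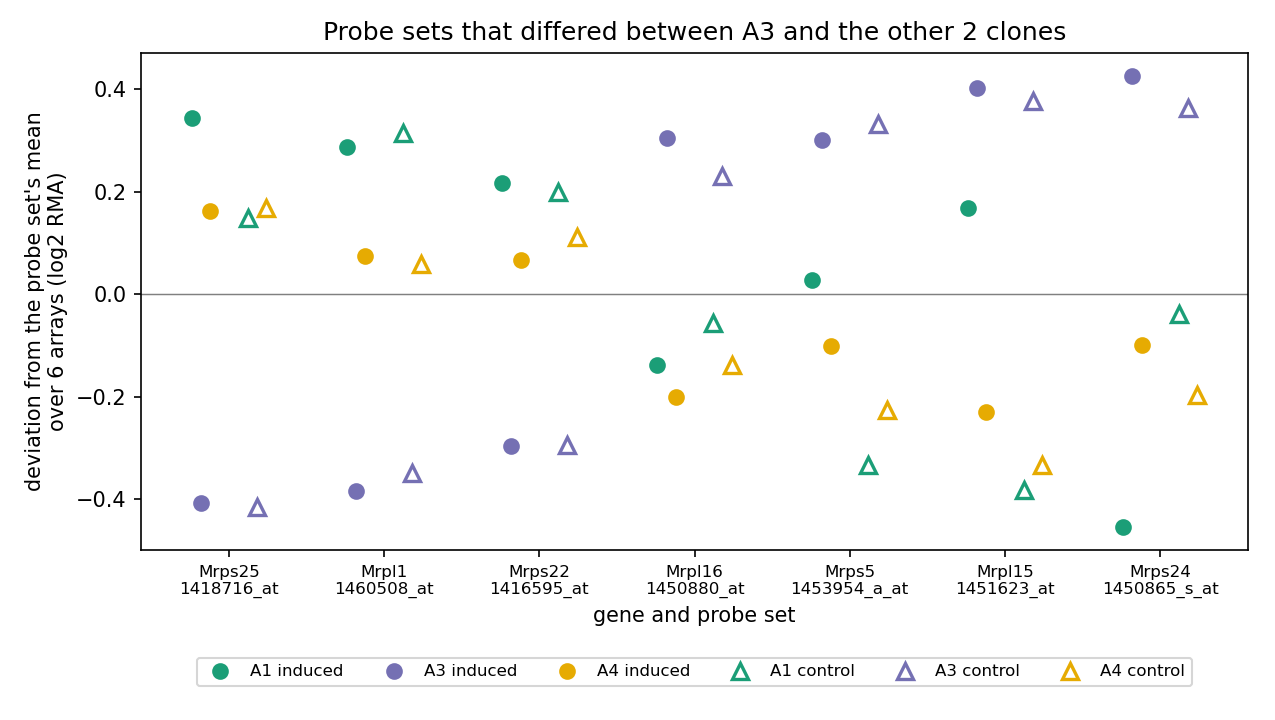
Values of the 7 mitochondrial ribosomal probe sets called between A3 and the mean of A1 and A4, as deviations from the mean of the probe set over the 6 arrays in log2 RMA units, with induced arrays (filled circles) left of control arrays (open triangles). In each of the 7 the A3 arrays lie together, below all others for Mrps25, Mrpl1 and Mrps22 and above all others for Mrpl16, Mrps5, Mrpl15 and Mrps24.

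The calls, more than the sizes of the differences, depended on single arrays. Leaving out 1 array or 1 clone gave 0 to 3 members called by the F test and 0 to 5 by the contrast of A3, and without the induced array of A3 neither called any member. The differences themselves stayed in the same direction in these omissions, from -0.67 to -0.57 log2 for Mrps25, from -0.50 to -0.38 log2 for Mrps22 and from 0.47 to 0.72 log2 for Mrps24. Over the whole array the calls of the F test were 589 without the induced array of A3, 8 without clone A3 and 2724 without clone A4, against 2496 with all arrays.

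Some markers of other cell types were also called in A3, against 5.68% lower and 3.89% higher of all probe sets. Of the 5 endoderm markers 3 of 13 probe sets were called lower, of the neural markers 1 of 11 was called higher and 1 lower, and of the ES cell markers 2 of 18 were called lower. Of the 5 endoderm markers, all with means under 6 log2, Gata4, Gata6 and Sox17 were called lower in A3, and the mean of the list was 4.62 log2 induced and 4.60 log2 control in A3, against 5.08 and 5.11 log2 in A1 and 5.01 and 4.86 log2 in A4. The neural calls were Pax6 (higher) and Sox1 (lower), and both ES cell calls were of Klf4. No fibroblast or mesoderm marker was called. Their part in the differences of the mitochondrial ribosomal genes was not tested.

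Between A1 and A4, where no member was called, 66 of the 76 genes were higher in A1 (86.8%), with a median difference of 0.076 log2. Over the genes with a mean of at least 6 log2, 59.8% were higher in A1 and the median was 0.029 log2. Of 49 cytosolic ribosomal protein genes 25 were higher in A1, with a median of 0.0035 log2. By the labels the order held in both conditions, since the median deviation of the members was 0.066 log2 on the induced array of A1 and 0.0027 log2 on that of A4, and 0.033 log2 on the control array of A1 and -0.082 log2 on that of A4.

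Few genes that act with the mitochondrial ribosome were called in A3. A list of 6 further symbols for proteins of the ribosome had 4 that matched a gene on the arrays. Gadd45gip1, a large-subunit protein, was higher in A3 at its 2 probe sets, by 0.47 and 0.45 log2 (adjusted p = 0.0293 and 0.0346). No other gene of that list was called. Of 25 assembly genes only Gtpbp10, a GTPase of large-subunit assembly, was called, lower in A3 by -0.77 and -0.65 log2 (adjusted p = 0.00708 and 0.00876). Of 13 translation factors 0 were called in the contrast, and of the 19 tRNA ligases and related genes only Gatb, lower by -0.48 log2 (adjusted p = 0.0301). By probe sets, 2 of 52 for assembly, 0 of 21 for translation factors and 1 of 37 for the ligases were called lower and 0 higher, against 5.68% and 3.89% of all probe sets.

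Among 15 regulators of mitochondrial genes, measured by 36 probe sets, 8 probe sets of 4 genes (Yy1, Nrf1, Ppargc1b and Gabpb2) were called lower in A3 and 2 probe sets of Mycn higher, beside shares of 5.68% lower and 3.89% higher over all probe sets. No probe set of the other 10 genes was called, Gabpa among them. Yy1, at its brightest probe set, read 10.39 log2 induced and 10.51 log2 control in A3, against 11.64 and 11.39 log2 in A1 and 11.50 and 11.52 log2 in A4, a difference of -1.06 log2 (standard error 0.11, adjusted p = 0.00189). All 4 of its probe sets were called lower. Nrf1 was lower by -0.66 log2 (adjusted p = 0.00625) and -0.52 log2 (adjusted p = 0.02) at its 2 brightest probe sets, and Gabpa differed by -0.17 log2 (adjusted p = 0.364). Gabpb2, a partner of Gabpa, was called at its dimmest probe set alone (-0.46 log2, adjusted p = 0.038). Ppargc1b, a coactivator of mitochondrial genes, was lower by -1.30 log2 (adjusted p = 0.00232), and Mycn was higher by 0.69 log2 (adjusted p = 0.00618).

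The A3 difference was also taken over the members with and without each motif. The 12 genes with Yy1's core had a median A3 difference of 0.023 log2, with 5 lower, and the 55 without it -0.019 log2, with 29 lower. For Nrf1's core the medians were -0.057 log2 over 20 genes with it and 0.0027 log2 over 47 without it, and for the ETS motif -0.14 log2 over 11 with it and 0.0090 log2 over 56 without it. Over all genes on the arrays with a window, the medians were 0.0048 log2 with Yy1's core and 0.038 log2 without it, -0.014 and 0.044 log2 for Nrf1's core, and -0.048 and 0.041 log2 for the ETS motif. The sets with and without a motif were described and not tested.

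The genes were also split by subunit, origin and chromosome. The A3 difference had a median of -0.018 log2 over Mrpl genes and 0.030 log2 over Mrps genes. On induction the median change was 0.043 log2 for 46 genes with a bacterial counterpart and 0.045 log2 for 26 without one. When Mrps18a and Mrps30, which sit in the large subunit, were counted there and Mrps36 was left out, the medians on induction were 0.038 log2 for 49 large-subunit genes and 0.062 log2 for 26 small-subunit genes. The members were spread over 17 chromosomes, with 11 on chromosome 11 and 8 on chromosome 17. The sets of genes compared with them on each chromosome did not hold all measured genes. The median A3 difference of the members was 0.081 log2 on chromosome 11, against 0.0025 log2 for the 831 genes compared there. On chromosome 17 it was -0.052 log2, against -0.033 log2 for the 495 genes compared. On chromosome 15 the 407 genes compared had a median of -0.28 log2 in A3. The only member there, Mrpl13, differed by 0.18 log2 at its brightest probe set and by -0.14, -0.04 and -0.12 log2 at the other 3, none of which was called.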

How the data were processed

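RNA of the 6 samples had been hybridised to Affymetrix whole-genome mouse expression arrays, and the authors summarised them to log2 values by RMA with the affy package (version not given in the sources used here). RMA corrects background and equalises the distributions of the arrays, so a change shared by all genes cannot be seen, and values of dim probe sets are compressed. The deposited log2 values were used as they stood.

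Of 45101 probe sets 64 controls were left out. The platform annotation gave 1 symbol to 34945, several to 932 and none to 9160. Induced and control arrays were compared with limma 3.58.1 in R 4.3.3 (lmFit, eBayes, two-sided, Benjamini-Hochberg over 45037 probe sets, threshold 0.05), and clones with condition and clone as terms. The fits were tested on simulated data. Array number limits the precision. Replicate numbers name the clones and thus pair the arrays: over all probe sets, deviations from the group means correlated by 0.31, 0.67 and 0.29 within A1, A3 and A4, but by 0.37 between induced A1 and control A4 and by 0.35 between induced A4 and control A1, so that only A3 was closest to its own pair. The pairing comes from the labels, and the block by clone is an alternative.

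Genes were represented by their brightest probe set. Named were, for each subunit, the 4 genes higher and 4 lower in every clone with the smallest p (none was lower), the 4 steadiest and 4 most variable, the 10 probe sets with the smallest clone p, genes with 3 or more probe sets that disagree by over 0.3 log2, and the Mrps18 paralogs. Members, lists and motifs were chosen with earlier results of these data known. All 76 gene IDs matched RefSeq, which supplied symbols, chromosomes and promoter windows. The alternatives were a minimum mean of 6 log2, 3 other normalizations, other variance settings, all probe sets, the methods' t-test and omitted arrays.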

Additional observations from a re-analysis of the deposited data

How the results depend on the processing

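With 3 arrays in each condition and 2 for each clone, small changes of single genes were not detectable. On induction 0 probe sets were called under every alternative run, with 236 to 2777 at an unadjusted p under 0.05 over all 45037 probe sets (39 of 17327 with a minimum mean of 6 log2) and 0 to 8 among the members. With the replicate block the count stayed at 0 (members at an unadjusted p under 0.05: 3) and the block changed no other call. The members' median change was 0.028 log2 after another quantile normalization, 0.026 log2 after cyclic loess and 0.068 log2 with array medians subtracted. In these settings 60, 58 and 71 members were higher, and the medians over all genes were -3.1e-05, 0.00056 and 0.027 log2. With arrays weighted in the fit the members' median was 0.031 log2 with 54 higher, against -0.0065 log2 over all genes. The median change of Mrpl genes was 0.017 to 0.074 log2 with 1 array or clone left out, that of Mrps genes 0.037 to 0.081 log2, that of all members 0.023 to 0.074 log2, and 45 to 70 genes were higher. Without both control replicate 3 and induced replicate 1, a setting added after seeing the data, these were -0.0041 log2, 0.011 log2, 0.0076 log2 and 41 genes. Over these and the single omissions Mrpl1 changed by -0.0082 (without both) to 0.18 log2, with -0.0031 log2 without induced replicate 1, and Mrps11 by -0.00057 (without both) to 0.19 log2. The cause was not tested.

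Between clones, the median A3 difference of the members was -0.022 log2 with array medians subtracted, 0.057 log2 after another quantile normalization, 0.055 log2 after cyclic loess and -0.015 log2 over all probe sets, and ran from -0.028 to 0.053 log2 with 1 array or clone left out. The F test called 4 of the 156 members after another quantile normalization, against 2919 of the 45037 probe sets. With trend and robust variances it called 8 members, against 3618 probe sets. With 1 array or clone left out it called 0 to 3 members, where the calls over the whole array were 8 to 2724. The contrast of A3 called 13 members with a minimum mean of 6 log2, 16 with trend and robust variances and 0 to 5 with 1 array or clone left out. The minimum mean left 123 members among 17327 probe sets. Whole-array counts of this contrast in these settings are not given, so no share stands beside its member counts. The median SD of the members was 0.088 to 0.117 log2 in the same omissions.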
